A study of Mus musculus with 9 samples.

Results

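The region examined was mouse chromosome 2 from 73.9 to 75.7 Mb (build mm10), which holds Evx2, Hoxd13, Hoxd12, Hoxd11, Hoxd10 and Hoxd9 and the DNA on both sides of the HoxD cluster. All peaks of acetylated histone H3 lysine 27 (H3K27ac, a mark of active promoters and enhancers) that lay in this region were taken, whatever their strength. These were 87 of 25096 peaks in wild type (WT), 67 of 32085 in Shh-/- and 151 of 34641 in Shh-/-;Gli3-/- limb buds, or 305 of 91822 in all. The region was divided by position into a centromeric landscape (73.9 to 74.65 Mb), the 5′ end of the cluster (74.65 to 74.7 Mb) and a telomeric landscape (74.77 to 75.7 Mb). The stretch between 74.7 and 74.77 Mb, with Hoxd8, Hoxd4, Hoxd3 and Hoxd1, is called the 3′ cluster here and was kept as a span of its own. Evx2 is annotated at 74652991 to 74659557 and so counts with the 5′ cluster, while Lnpk lies in the centromeric landscape. A peak that crossed a border was assigned by its midpoint.

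The assay was MicroChIP-seq, which needs few cells, on forelimb buds of E10.5 mouse embryos with 33 to 34 somites. The labels give the strain background as mixed, whereas the study's methods name Swiss Webster for both null alleles. WT embryos carried intact Shh and Gli3. Shh-/- embryos were homozygous for a null allele of Shh, the Sonic hedgehog ligand. Shh-/-;Gli3-/- embryos, called double mutants here, were null for Shh and carried the Gli3 Xt-J null allele on both chromosomes. They thus lacked GLI3, whose repressor form holds Hedgehog targets down in the limb where the Hedgehog signal is absent. Each genotype had 2 immunoprecipitated libraries, each from the paired limb buds of a single embryo, and 1 input library, but a single peak list. No value per replicate was therefore available, the variation between embryos is unknown for every difference below, and no p-value was computed. Whole limb buds were used, so more cells that carry the mark and more of the mark per cell cannot be told apart.

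The 5′ Hox genes of the cluster encode transcription factors that pattern the limb from the forearm to the digits, with Hoxd13 acting most distally, and Evx2 is a neighbouring homeobox gene that is expressed in a similar distal domain. In the limb they are known to be served by both flanking gene deserts. The telomeric one drives the early phase in the future arm and forearm, and the centromeric one drives the late phase in the future digits. Expression of the 5′ genes in the posterior limb bud is known to depend on Hedgehog signalling, and GLI3 repressor is known to restrain it anteriorly.

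As a check of the tissue, all 10 limb mesenchyme genes examined, among them Tbx5, Prrx1 and Meis2, had a peak in their promoter window (2 kb before to 1 kb after an annotated start) in each list. The promoters of the hindlimb genes Pitx1 and Tbx4 held no peak in any list. A peak was present at the promoter of 1 of 6 limb ectoderm genes (Tfap2a) in each list, of 1 of 3 muscle precursor genes (Lbx1, 250 bp) in the double mutant list and of 1 of 4 blood genes (Tal1, 150 bp) in the Shh-/- list. At markers of endothelium, neural tissue, heart and liver (3 genes each) no list had a promoter peak. The share of all promoters with a peak was not computed, so none of these counts has a background beside it. The deletions themselves could not be checked from peaks, since the Shh promoter held no peak in any list and the Gli3 promoter was covered over 2881, 2831 and 2831 bp in WT, Shh-/- and double mutant. The lists also differed over the whole genome: they covered 10.4, 12.9 and 17.1 Mb in that order, so the double mutant list was 1.64 times the length of the WT list, and peaks outside promoter windows covered 2.57 times the WT length. The part of these list-wide differences in the results below was not tested, and the ratios of the whole lists are given beside them.

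Sequences from some of the peaks that differed between the lists are given first, chosen by their nearness to a gene start or by their strength. The 2 sequences that follow are WT peaks overlapped by a double mutant peak but by no Shh-/- peak. They are the WT peaks without a Shh-/- peak nearest to Hoxd13 and Hoxd12 (plus strand, mm10, no motif letters found). The WT call at Hoxd13 was weak (FDR 0.314). At the Hoxd12 sequence the double mutant peak ends at 74673099, before the end of the printed bases. The Hoxd13 sequence lies in the coding part of the first exon of this gene, and the Hoxd12 sequence lies between Hoxd13 and Hoxd12. The nearest WT peak of this kind to Evx2 is the same one as for Hoxd13, at a distance of 8.84 kb from the Evx2 start.
Hoxd13, chr2:74668400-74668499, whole peak: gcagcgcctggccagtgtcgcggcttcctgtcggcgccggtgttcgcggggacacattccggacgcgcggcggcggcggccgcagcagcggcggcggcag
Hoxd12, chr2:74673000-74673149, whole peak: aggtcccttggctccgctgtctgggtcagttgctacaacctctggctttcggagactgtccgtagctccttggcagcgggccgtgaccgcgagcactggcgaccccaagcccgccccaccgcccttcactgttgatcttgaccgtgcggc

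The next sequence is the 250 bases before the Hoxd13 start of RefSeq (build GRCm38.p6, the assembly of mm10, plus strand). It is shown because, within the 300 bases of this RefSeq promoter, the double mutant list covered 175 bases and the other lists none.
Hoxd13 upstream, chr2:74667975-74668224: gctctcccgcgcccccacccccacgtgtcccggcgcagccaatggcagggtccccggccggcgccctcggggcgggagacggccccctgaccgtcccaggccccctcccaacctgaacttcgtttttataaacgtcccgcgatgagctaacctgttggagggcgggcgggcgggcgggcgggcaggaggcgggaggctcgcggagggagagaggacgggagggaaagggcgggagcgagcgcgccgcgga

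In the landscapes, the strongest double mutant peaks outside promoters are represented by 300 bases around the position of their largest statistic (plus strand), since these mark the places of greatest enrichment. The last sequence is the only WT peak of the region with the full GLI letters GACCACCCA, which are in capitals. It had no Shh-/- and no double mutant peak on it.
Centromeric landscape, double mutant, chr2:74240075-74240374: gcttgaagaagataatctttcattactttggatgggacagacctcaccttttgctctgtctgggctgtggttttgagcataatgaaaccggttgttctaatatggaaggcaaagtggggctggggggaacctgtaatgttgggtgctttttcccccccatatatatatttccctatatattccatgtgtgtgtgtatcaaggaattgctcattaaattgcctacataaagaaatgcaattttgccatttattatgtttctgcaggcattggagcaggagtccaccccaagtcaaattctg
Telomeric landscape, double mutant, chr2:75440375-75440674: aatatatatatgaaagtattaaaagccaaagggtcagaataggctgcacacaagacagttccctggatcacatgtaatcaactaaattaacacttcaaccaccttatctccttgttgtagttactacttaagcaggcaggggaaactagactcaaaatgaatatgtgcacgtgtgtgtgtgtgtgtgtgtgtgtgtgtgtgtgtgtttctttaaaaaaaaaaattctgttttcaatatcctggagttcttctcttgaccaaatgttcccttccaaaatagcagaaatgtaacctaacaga
Centromeric landscape, WT, chr2:74265350-74265599: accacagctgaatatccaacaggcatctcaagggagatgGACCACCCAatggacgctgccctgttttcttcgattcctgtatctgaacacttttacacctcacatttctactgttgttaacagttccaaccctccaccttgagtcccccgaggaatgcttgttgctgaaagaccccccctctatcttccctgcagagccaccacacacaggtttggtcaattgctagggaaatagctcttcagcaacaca

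The first question was how much of the region was acetylated in each genotype. The total length under peaks was 37.0 kb (WT), 32.0 kb (Shh-/-) and 116.1 kb (double mutant), which is 2.06%, 1.78% and 6.45% of the 1800 kb. The Shh-/- length was 0.865 times the WT length, against 1.24 over the whole lists. For the double mutant it was 3.14 times the WT length, against 1.64 over the whole lists, and 3.63 times the Shh-/- length, against 1.33. The region thus held less of the Shh-/- list and more of the double mutant list than the sizes of the lists would give. The map of all peaks shows where they lay.

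**Figure D1:**
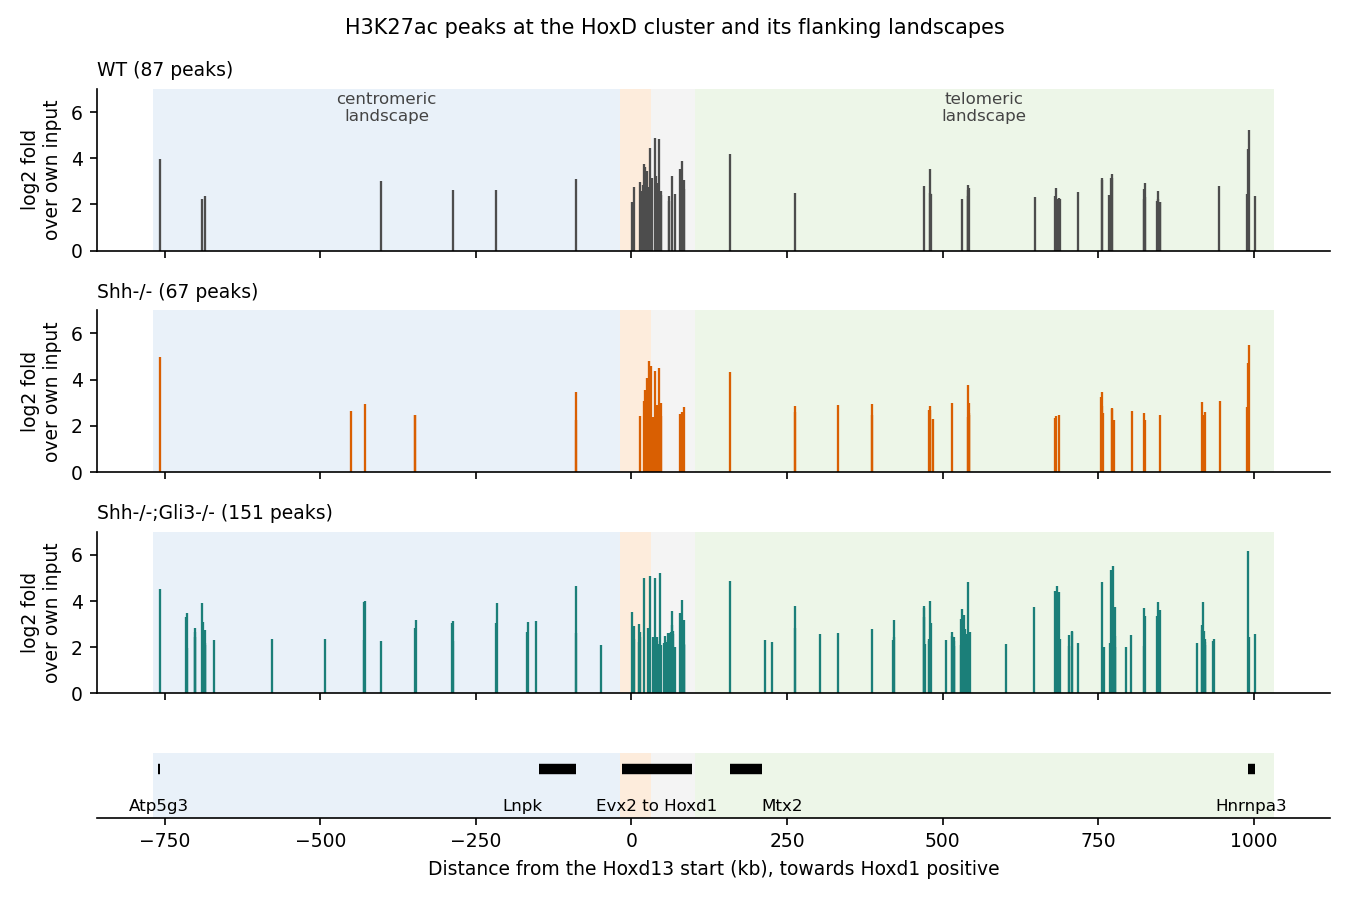
Peaks of the 3 lists along the region, with distance from the annotated Hoxd13 start on the horizontal axis (kb) and the deposited log2 fold over the input of the same genotype as the height of each line, drawn at the peak midpoint and not to width. Shading marks the centromeric landscape (blue), 5′ cluster (orange), 3′ cluster (grey) and telomeric landscape (green), and the double mutant track with 151 peaks fills both landscapes more densely than the WT track with 87 and the Shh-/- track with 67. Heights are not comparable between tracks.

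The gain in the double mutant was unequal along the region. In the centromeric landscape 7 WT, 7 Shh-/- and 32 double mutant peaks covered 2.25, 2.55 and 17.4 kb, so the double mutant length was 7.73 times that of WT and 6.82 times that of Shh-/-. In the telomeric landscape 39, 38 and 77 peaks covered 12.15, 11.8 and 58.9 kb, a double mutant length of 4.85 times WT and 4.99 times Shh-/-. The Shh-/- length was 1.13 times WT in the centromeric and 0.971 times in the telomeric landscape, against 1.24 over the whole lists. In the 5′ cluster 22 WT, 10 Shh-/- and 11 double mutant peaks covered 10.85, 8.9 and 20.55 kb, so double mutant limb buds had fewer but wider peaks than WT, over 1.89 times the length. This is 21.7%, 17.8% and 41.1% of the 50 kb. In the 11.293 kb of this segment more than 10 kb away from Hoxd11 to Hoxd13, the lengths were 2.983, 2.683 and 2.983 kb. The double mutant thus did not exceed WT there. Without the widest peak of each list the 5′ cluster lengths were 7.55, 6.45 and 8.5 kb. The peaks taken out differed in place, over Hoxd9 in WT and Shh-/- and from Hoxd11 to Hoxd10 in the double mutant. These lengths thus do not compare the same DNA. Over the 12050 bp of that double mutant peak, WT peaks covered 6300 bp and Shh-/- peaks 4850 bp. In the 3′ cluster 19, 12 and 31 peaks covered 11.75, 8.75 and 19.25 kb. When the lists were shortened from their weak end to the same covered length, the double mutant still covered 9.25 kb in the centromeric landscape (WT 2.25 kb), 17.1 kb in the 5′ cluster (WT 10.85 kb) and 44.95 kb in the telomeric landscape (WT 12.15 kb). Shh-/- then covered 2.05, 8.35 and 7.25 kb in that order, so its telomeric ratio to WT fell to 0.597.

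Outside promoter windows the contrast was greater in the landscapes. Centromeric peaks of this kind numbered 5 in WT (0.85 kb), 4 in Shh-/- (0.6 kb) and 29 in the double mutant (15.1 kb). The telomeric ones covered 8.75 kb (35 peaks), 8.05 kb (34 peaks) and 54.65 kb (75 peaks). The double mutant length was thus 17.8 times the WT length in the centromeric and 6.25 times in the telomeric landscape, against 2.57 times over all such peaks of the lists. The centromeric ratio rests on a WT base of 5 narrow peaks. In the 5′ cluster, where the wide double mutant peaks reach promoter windows, the same measure was 2.5, 1.3 and 0.6 kb.

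**Figure D2:**
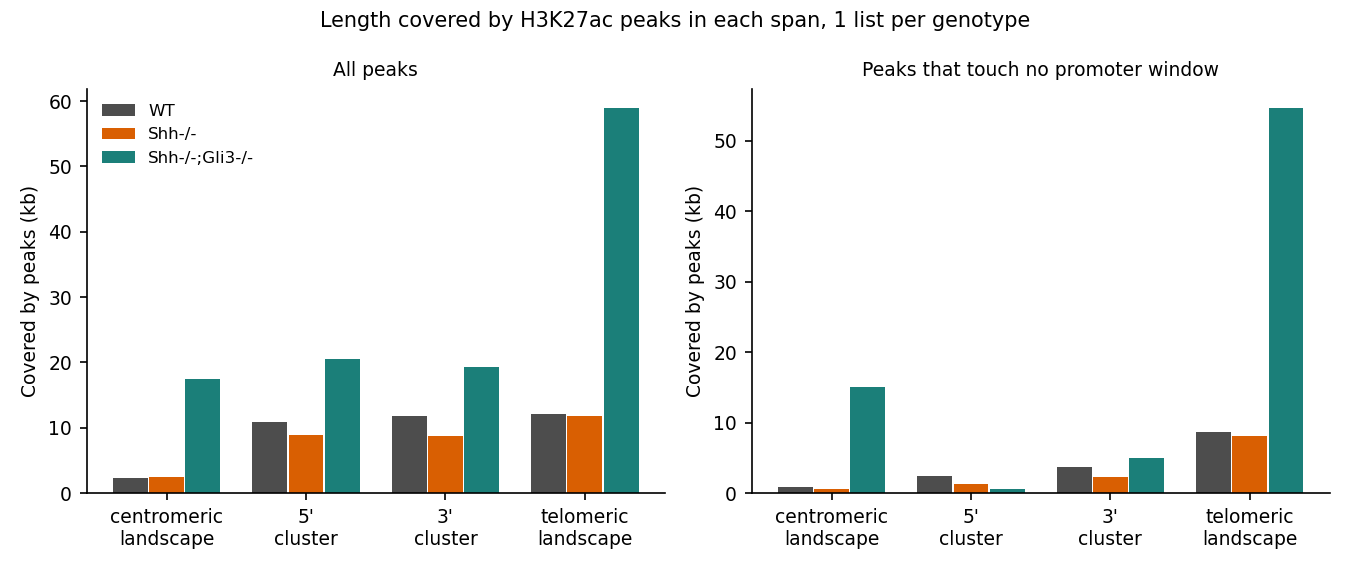
Length covered by peaks (kb) in each span for WT, Shh-/- and double mutant limb buds, over all peaks (left) and over peaks that touch no promoter window (right), with 1 list per genotype and no error bars. The double mutant bar is the tallest in every span on the left, reaching 58.9 kb in the telomeric landscape, and on the right it is the shortest in the 5′ cluster only, at 0.6 kb.

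To see whether a few places made up the gain, the region was cut into 18 bins of 100 kb. Double mutant coverage exceeded WT coverage in 18 of 18 bins, beside 70.3% of 13841 bins over the genome with a peak in any list, and it exceeded Shh-/- coverage in all 18 as well, beside 59.5%. The median gain of the double mutant over WT was 1800 bp a bin, beside 200 bp over the genome, and 16 of the 18 bins exceeded the 75th percentile of genome bins (600 bp). Shh-/- coverage exceeded WT coverage in 7 bins, beside 55.7% of genome bins, and was below it in 6. The smallest gains lay in the gene desert between 74000000 and 74199999, where WT and Shh-/- limb buds had no peak and the double mutant list covered 200 and 150 bp a bin.

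**Figure D3:**
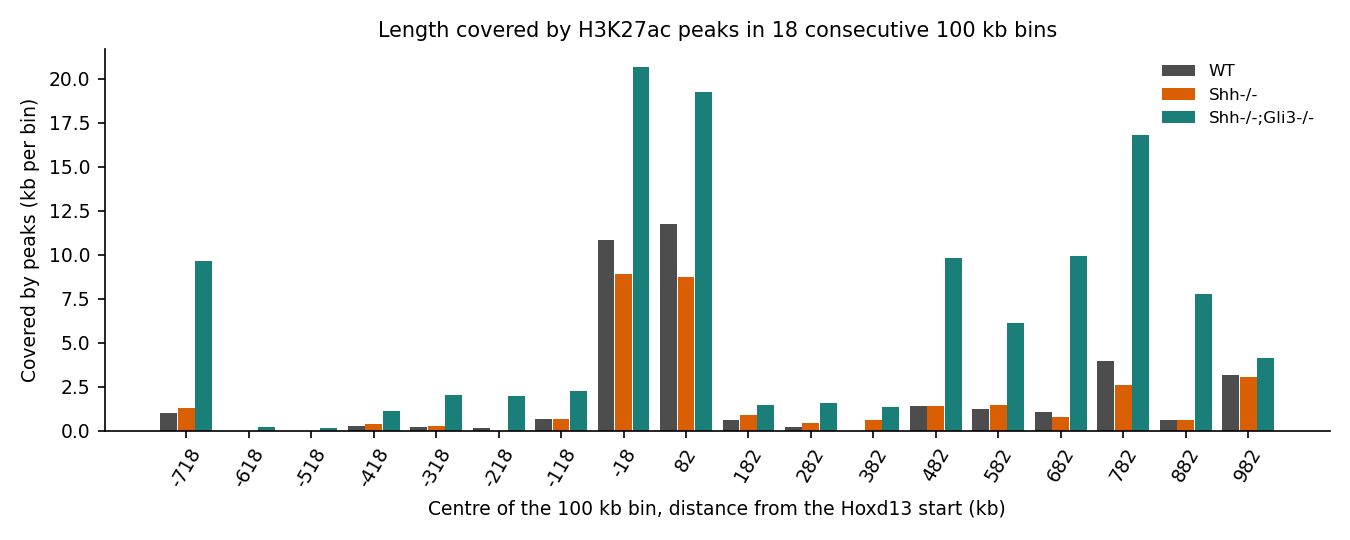
Length covered by peaks (kb per bin) in 18 consecutive bins of 100 kb, labelled by the distance of their centre from the annotated Hoxd13 start (kb). The double mutant bar is above the WT bar in all 18 bins, and the bins of greatest double mutant coverage are the 2 that hold the HoxD cluster (20650 and 19250 bp) and the bin centred near 782 kb in the telomeric landscape (16800 bp).

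The members of the 5′ cluster were then read in order from Evx2 to Hoxd9. The share of the gene covered by peaks increased from Hoxd12 to Hoxd9 in every list, and the genotypes differed most at Hoxd11. Hoxd9 was covered in full in all 3 lists, whereas Evx2 held no peak in any list, over its gene or its promoter window.

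Hoxd13, the gene at the 5′ end of the cluster and a regulator of digit formation, had a single WT peak of 100 bp in its first exon (74668400 to 74668499, log2 fold 2.12, FDR 0.314). That FDR is far above the usual 0.05, and this peak was among the weakest of its list, at rank 24486 of 25096. No Shh-/- peak touched the gene or its promoter window. The double mutant list had a peak of 950 bp across the start (74668100 to 74669049, log2 fold 3.53, FDR 0.000756) and a second of 200 bp at 74670000 to 74670199 (FDR 0.0516). The gene was covered by 3.04%, 0% and 28.6% of its 3290 bp. Of the printed Hoxd13 sequences, the exon 1 stretch lies wholly inside the double mutant peak.

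At Hoxd12, which has a similar distal role to Hoxd13, no list had a peak inside the gene. Upstream, a WT peak of 150 bp (74673000 to 74673149, log2 fold 2.76, FDR 0.0108) and a double mutant peak of 500 bp (74672600 to 74673099, log2 fold 2.93, FDR 0.00105) overlapped, with no Shh-/- peak between Hoxd13 and Hoxd12. A further double mutant peak of 100 bp lay at 74672100 to 74672199. In the promoter window of Hoxd12 this gave 137, 0 and 87 bp, so here the double mutant did not exceed WT. The 1851 bp between Hoxd12 and Hoxd11 held no peak in any list.

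Hoxd11, which acts with its paralogue Hoxa11 in the forearm, showed the plainest difference between genotypes. Its 7460 bp were covered over 1717 bp in WT (23.0%), 100 bp in Shh-/- (1.34%) and 6117 bp in double mutant limb buds (82.0%). The WT coverage came from 6 peaks between 74682400 and 74687199, of 150 to 750 bp. None of the 6 shared a base with a Shh-/- peak. The single Shh-/- peak, 100 bp at 74682300 to 74682399 (log2 fold 2.45, FDR 0.106), lay on the start of the shorter transcript. It overlapped no WT peak but ended at the base before the first of the 6. A further Shh-/- peak began at 74687300, just past the last of them, so the lack of overlap depends there on the called borders. In the double mutant, 4 peaks of 200 to 350 bp between 74679950 and 74682049 preceded the widest peak of the entire double mutant list, 12050 bp from 74682100 to 74694149 (log2 fold 5.02, rank 1395 of 34641). This wide peak began inside the annotated Hoxd11 gene, just before the start of the shorter transcript, and ended in the second exon of Hoxd10. On it lay 15 WT and 4 Shh-/- peaks, covering 52.3% and 40.2% of its length.

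Hoxd10, expressed in more proximal limb tissue than the genes before it, was marked in all genotypes. Its 3182 bp were covered to 64.4% in WT, 53.4% in Shh-/- and 93.7% in double mutant limb buds. The strongest peaks on it were 74692350 to 74694099 in WT (1750 bp, log2 fold 3.44) and 74692250 to 74693649 in Shh-/- (1400 bp, log2 fold 4.09). In its promoter window Shh-/- exceeded WT, with 2501 against 2001 of 3001 bp, and the double mutant covered all 3001 bp. Likewise the 4907 bp between Hoxd11 and Hoxd10 were covered to 57.7% in WT, 68.3% in Shh-/- and 100% in the double mutant. Shh-/- coverage was thus below WT over Hoxd11 itself and above it over the interval that follows. Gm28309, a processed transcript annotated at 74683446 to 74694194, overlaps both Hoxd11 and Hoxd10. Peaks on the shared bases cannot be told apart by position. This holds for all WT peaks on Hoxd11 except the first.

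Hoxd9, the most proximal member, lay in a peak of 3650 bp in WT (74696700 to 74700349, log2 fold 4.43), 3350 bp in Shh-/- (74697550 to 74700899, log2 fold 4.58) and 5700 bp in the double mutant (74695900 to 74701599, log2 fold 5.09). These crossed the border at 74.7 Mb and were assigned to the 5′ cluster. Between Hoxd10 and Hoxd9 the coverage was 65.9%, 56.4% and 96.2% of 2621 bp.

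**Figure D4:**
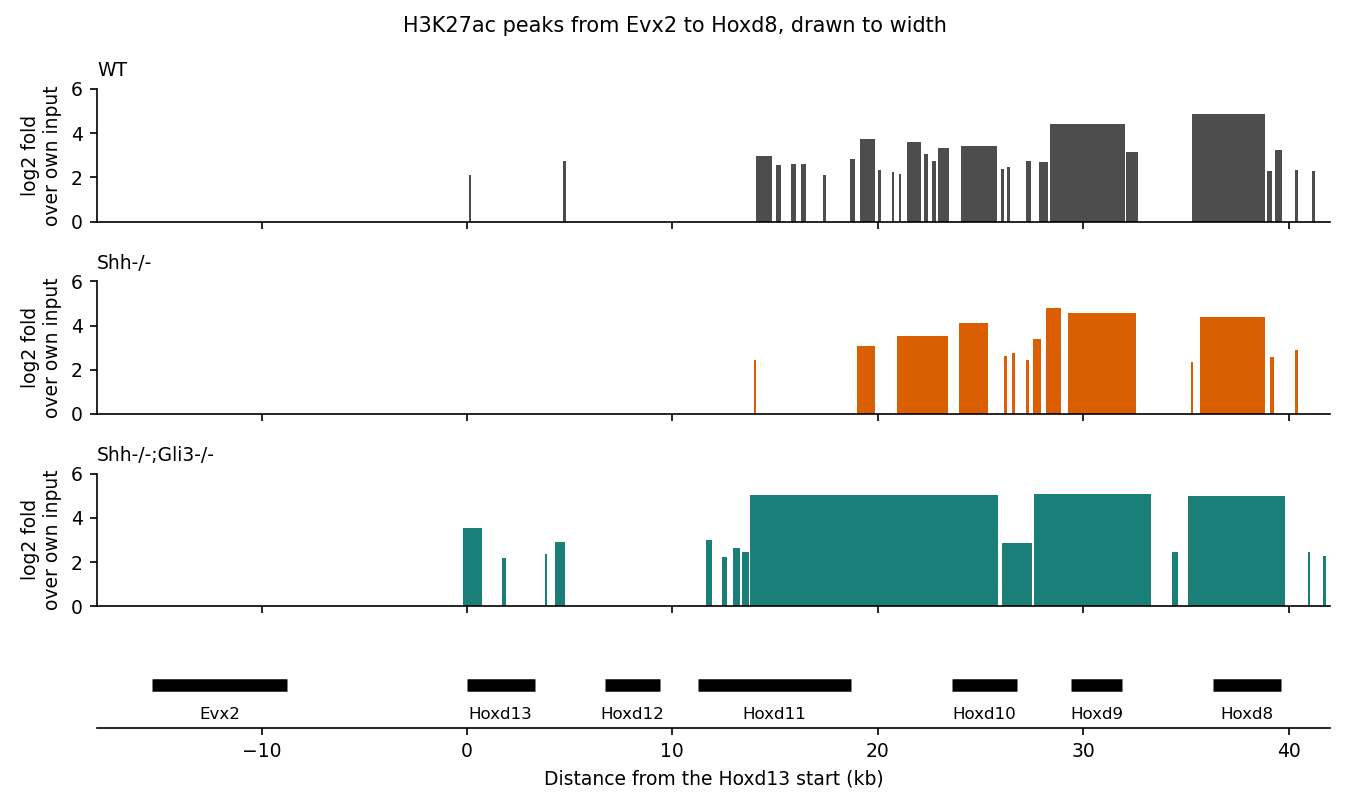
Peaks from Evx2 to Hoxd8 drawn to width, with distance from the annotated Hoxd13 start (kb) on the horizontal axis, the deposited log2 fold over own input as height, and black bars for the annotated genes. Separate narrow WT peaks over Hoxd11 share no base with a Shh-/- peak, and a single double mutant peak of 12050 bp spans them. Shh-/- peaks adjoin the first of these WT peaks and closely follow the last. Heights are not comparable between genotypes.

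**Figure D5:**
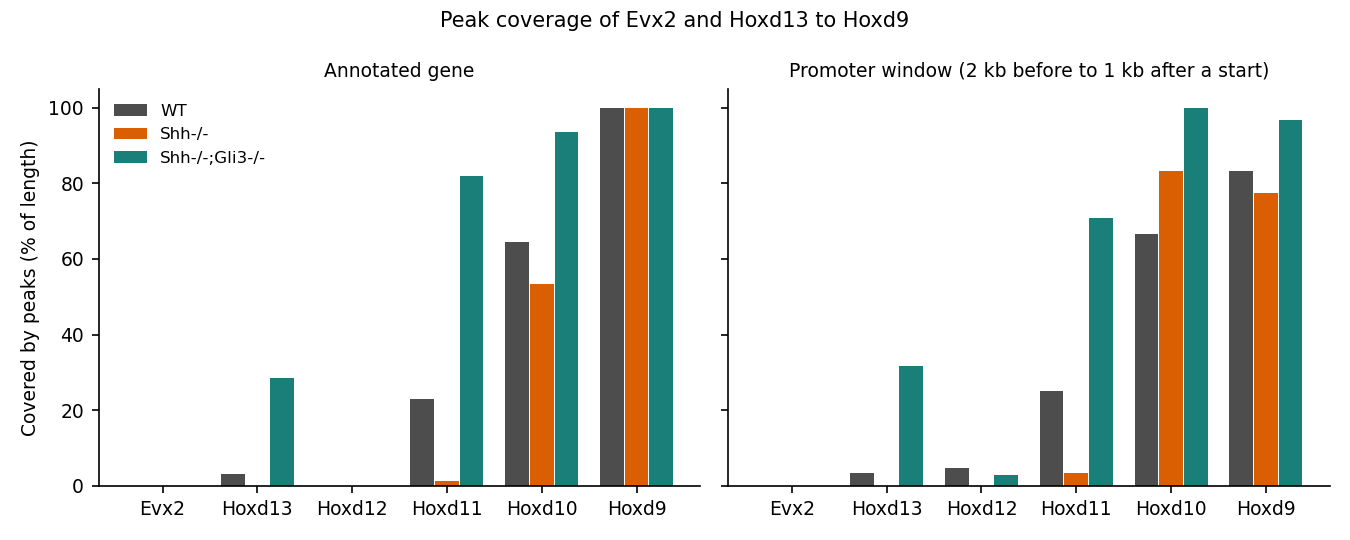
Share of length covered by peaks (%) for the annotated gene (left) and the promoter window (right) of each member in the 3 lists, in the order of the genes on the chromosome and with no error bars, since each genotype has 1 list. Over the genes the bars for Hoxd11 read 23.0% in WT, 1.34% in Shh-/- and 82.0% in the double mutant, while Hoxd9 reads 100% in all lists and Evx2 has none.

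GLI3-bound regions of this locus that lie near Hoxd11, Hoxd12 and Hoxd13 in the study's supplementary region list were read against the peak lists. Of these 8 regions, 5 held a WT peak, 1 a Shh-/- peak and 6 a double mutant peak, over 1450, 100 and 4400 bp in total. Because the regions had been chosen by the study for reduced or lost acetylation in Shh-/- limb buds, the low Shh-/- count is not independent evidence. The same counts over all regions so chosen by the study were not made. The WT and double mutant counts at this locus thus have no background beside them either. Both regions assigned to Hoxd12 alone or to Hoxd12 with Hoxd13 held no peak in any list.

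A second question was which WT peaks of the region were detected again in each mutant (overlap of at least 1 bp). Of the 87 WT peaks, 40 (46.0%, Wilson 95% interval 35.9 to 56.4%) met a Shh-/- peak, beside 63.4% of the whole WT list. A double mutant peak was met by 78 (89.7%, 81.5 to 94.5%), beside 70.8%. An FDR below 0.05 was held by 56.3% of WT, 62.7% of Shh-/- and 80.8% of double mutant peaks of the region. Over the whole lists these shares were 60.8%, 72.4% and 83.4%. With only such peaks kept, 55.1% of the region's WT peaks met a Shh-/- peak and 95.9% a double mutant peak. Whole-list overlaps at that cut were not computed. Intervals cover counting error over peaks and not variation between embryos, and neighbouring peaks are not independent. Among the 65 WT peaks of the region that touch no promoter window, 35.4% met a Shh-/- peak, close to 39.0% of all such WT peaks, and 86.2% met a double mutant peak, beside 52.4%. The lower share in Shh-/- was therefore near the background once promoter peaks were set aside, and the higher share in the double mutant was not. Of the 22 WT peaks of the 5′ cluster, 15 lay on the single double mutant peak of 12050 bp. When an overlap had to cover 50% of both peaks, 18.4% of the WT peaks met a Shh-/- peak and 11.5% a double mutant peak, which turns the order around.

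By class, 39 of the 87 WT peaks met a peak of both mutants, 39 met the double mutant list alone, 1 met the Shh-/- list alone and 8 met no mutant peak. The double mutant only class held 44.8% of the region's WT peaks, beside 12.5% of the whole WT list. Outside promoter windows it held 52.3%, beside 18.6%. In the 5′ cluster 12 of 22 WT peaks were of this class and the other 10 were met in both mutants. In the telomeric landscape 19 of 39 were of this class, 16 were met in both and 4 in neither. The centromeric landscape had 3 of 7 in this class, 2 in both, which were the Atp5g3 and Lnpk promoters, and 2 in neither. The WT peak met only in Shh-/- was in the 3′ cluster.

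The overlaps were also read from the mutant lists. Of the 67 Shh-/- peaks, 61 (91.0%) met a double mutant peak, beside 61.2% of the whole Shh-/- list, and 35 (52.2%) met a WT peak, beside 48.4%. Outside promoter windows, 88.2% met a double mutant peak, beside 43.8%, and 43.1% met a WT peak, beside 26.5%. Of the 151 double mutant peaks, 42 (27.8%) met a WT peak, beside 43.3% of that list, and 34 (22.5%) a Shh-/- peak, beside 49.4%. Outside promoter windows these shares were 23.6% and 19.5%, beside 22.7% and 28.5%. The double mutant list had 99 peaks (65.6%) that met neither of the other lists, beside 44.4% of the whole list. Outside promoter windows there were 85 of 123 (69.1%), beside 64.5%, so the shares were nearer once promoter peaks were set aside.

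In the centromeric landscape, which is known as the digit enhancer side, the strongest peaks of each list were at the promoters of Atp5g3, a mitochondrial ATP synthase subunit gene, and Lnpk. The Atp5g3 promoter window was covered over 750, 1300 and 1350 bp and that of Lnpk over 650, 650 and 950 bp, in WT, Shh-/- and double mutant. Away from promoters the widest peak was a double mutant peak of 3800 bp at 73976000 to 73979799 (log2 fold 3.93), 66.6 kb from Atp5g3. It held a WT peak of 100 bp (73978700 to 73978799, FDR 0.254) and no Shh-/- peak. It belonged to the longest run of peaks within 10 kb of each other that had WT and double mutant but no Shh-/- peaks, 73966250 to 73983949, with 250 bp in 2 WT peaks and 6350 bp in 8 double mutant peaks.

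Further centromeric runs of this kind were 74449850 to 74452349 (150 bp in WT, 1950 bp in double mutant), 74380400 to 74382349 (200 and 1300 bp) and 74265350 to 74266099 (250 and 100 bp). The last of these holds the WT peak with the full GLI letters printed above, and the double mutant peak of this run did not touch it. The strongest double mutant peaks outside promoters, 74240000 to 74240349 (log2 fold 4.02) and 74239100 to 74239599 (log2 fold 3.96), had no WT peak, and a Shh-/- peak of 200 bp met the second. A Shh-/- peak at 74217400 to 74217549 (log2 fold 2.62, FDR 0.0441) was the only run of the region without a double mutant peak. Between the double mutant peak of 100 bp at 74619850 to 74619949 and the one across the Hoxd13 start, no list held a peak, and this interval includes all of Evx2.

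In the telomeric landscape, known for the early phase of Hoxd expression, most of the wide double mutant peaks lay over narrower peaks of the other lists. Of 75 double mutant peaks outside promoter windows, 17 were 1 kb or wider (22.7%), beside 5.78% of all such double mutant peaks. No WT or Shh-/- peak of this kind reached 1 kb. Of the 17 wide peaks, 13 met a WT peak, 9 a Shh-/- peak and 4 neither. Over the whole double mutant list, 1067 of 1218 such wide peaks met a WT peak, 1060 a Shh-/- peak and 71 neither. Overlap of wide peaks with the other lists was thus less common in this landscape than over the genome. The widest of the 17 were 75421700 to 75426899 and 75349350 to 75354549, both 5200 bp. The first held 2 WT and 4 Shh-/- peaks over 26.0% and 32.7% of its length, and the second held 2 WT and 1 Shh-/- peaks over 6.73% and 2.88%.

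The greatest enrichment of the double mutant outside promoters lay at Gm13658, a long noncoding RNA gene at 75436057 to 75444179. Peaks there were 75440200 to 75443599 (3400 bp, log2 fold 5.52, rank 594) and 75436850 to 75439799 (2950 bp, log2 fold 5.35, rank 803), and Gm13658 was covered over 1350 bp in WT, 450 bp in Shh-/- and 6980 bp in double mutant limb buds. The first of these peaks carries the telomeric sequence printed above. At 2600014E21Rik, a long noncoding RNA gene of 178978 bp, the covered length was 2200, 2850 and 15707 bp. The peak 75208000 to 75211049 in this gene (3050 bp, log2 fold 4.82) held 4 WT and 5 Shh-/- peaks. Here Shh-/- coverage exceeded WT, the opposite of Gm13658.

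Telomeric places with WT but without Shh-/- peaks were 75370750 to 75385799 (100 bp in WT, 1200 bp in double mutant) and 75314950 to 75316149 (150 and 1200 bp). The converse, Shh-/- and double mutant peaks without WT peaks, was found at 75577400 to 75590149 (400 bp in 3 Shh-/- peaks and 3150 bp in 8 double mutant peaks), 75462100 to 75472999 and 75183050 to 75186699. At 75512200 to 75517399 there were 5 WT peaks over 600 bp, 1 Shh-/- peak over 200 bp and 3 double mutant peaks over 4600 bp. Over the whole region, 40 runs were found, of which 13 had peaks of all lists, 13 of the double mutant alone, 6 of WT and double mutant, 7 of Shh-/- and double mutant and 1 of Shh-/- alone. No run held WT peaks alone or WT with Shh-/- peaks alone. Kinds of run were not counted over the whole genome, so these counts have no background beside them. The double mutant list covered 1.64 times the length of the WT list, and the part of this in the counts was not tested.

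The other promoters of the landscapes were marked in every list. Coverage of the Mtx2 promoter window was 600, 900 and 900 bp, and that of Hnrnpa3, an RNA-binding protein gene, was 2169, 2669 and 2919 bp in WT, Shh-/- and double mutant. At the Nfe2l2 start, just past the telomeric border, it was 1509, 1459 and 1559 bp. In the 3′ cluster the Hoxd8 promoter windows were covered over 2553, 2253 and 3003 bp, those of Hoxd3 over 2028, 2078 and 3078 bp and those of Hoxd4 over 25, 0 and 1225 bp. Hoxd1 had no peak in any list.

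For context, 20 genes of the Hedgehog pathway and the posterior limb were read in the same way. A promoter peak was present for 11 in WT, 12 in Shh-/- and 13 in the double mutant. The share of all promoters with a peak was not computed, so these counts have no background beside them. Coverage in the double mutant was above WT for 12 and below it for 2, beside 36.3% and 8.94% of 21840 protein-coding genes. Coverage in Shh-/- was above WT for 8 and below it for 6, beside 32.2% and 14.6%. These background shares also count genes without a promoter peak in any list, which cannot differ. Of the 10 limb mesenchyme genes, double mutant coverage was above WT for 6 and below it for 2. For Shh-/- these counts were 6 and 4, so the differences were not particular to the Hedgehog and posterior limb genes. Gli1, a direct Hedgehog target, was covered over 776 bp in WT and listed with no peak in both mutants, whereas Ptch1, which encodes the SHH receptor, was covered over 3365, 1215 and 4051 bp. Like Hoxd11, Ptch1 was lowest in Shh-/- and highest in the double mutant. The study reports the other direction for its Hedgehog-responsive GLI3-bound regions at Ptch1, where acetylation was strongly reduced in double mutants. That result concerns enrichment at bound regions, whereas the lengths here are of called peaks in the promoter windows. Promoter coverage was also lowest in Shh-/- and highest in the double mutant at Tbx3, Hoxa9 and Sall3. The limb mesenchyme genes Prrx1 (2882, 2643 and 3043 bp) and Twist1 (2651, 2301 and 2851 bp) had this order too. The remaining genes of both lists did not. Among the HoxA paralogues, Hoxa11 had 1640, 1840 and 2551 bp, Hoxa10 had 2257, 2657 and 3362 bp, Hoxa9 had 3682, 3632 and 4032 bp, and Hoxa13 had no promoter peak in any list. Hand2, a regulator of the posterior limb bud, had 784, 984 and 1684 bp.

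Sequence features of the peaks were read in 300 bp windows on their midpoints. The median GC content was 48.0% in WT, 48.7% in Shh-/- and 45.0% in double mutant peaks of the region, below the 55.3%, 53.7% and 50.7% of the whole lists. Whole-list windows outside promoters had medians of 50.7%, 49.3% and 46.7%, nearer to the region, where most peaks touch no promoter window. The letters GACCNCCCA, a relaxed form of the GLI site, were found on either strand in 2 of 87 WT windows (2.30%), 1 of 67 Shh-/- windows (1.49%) and 0 of 151 double mutant windows, beside 1.12%, 0.998% and 0.872% of the whole lists. The full form GACCACCCA, a subset of these, was in 1 WT window. In the 5′ cluster the relaxed letters GACCTCCCA stand at 74684283 to 74684291, in the 3′ part of Hoxd11, inside a WT peak (74684100 to 74684349) and inside the 12050 bp double mutant peak. The letters CAATAAA, which posterior HOX proteins are known to bind, were found in 8 WT (9.20%), 4 Shh-/- (5.97%) and 12 double mutant windows (7.95%), beside 3.06%, 3.49% and 4.68% of the whole lists and 4.40%, 4.79% and 6.30% of windows outside promoters. A match of letters is a description and not a site. All 6 members were found in the RefSeq promoter table, where 0.977% of 32851 promoters of 300 bases have the relaxed GLI letters and 4.60% have CAATAAA. None of the members' promoters has the relaxed GLI letters, and that of Evx2 has CAATAAA once.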

How the data were processed

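H3K27ac MicroChIP-seq lists were analysed for 3 genotypes (WT, Shh-/-, Shh-/-;Gli3-/-), each made from 2 replicates and 1 input. Groups were taken from the sample titles, because the labels name every sample wild type in the genotype field. The authors called peaks with CisGenome 2.1.0 on build mm10, and the submitters' processing notes name Bowtie2 2.2.5. GEO stores each list with replicate 1, and whether reads of replicates were pooled is not given in the sources used here. The lists hold no read counts. The study's methods give only a lower limit of reads per library, the same for all, so the depth of each list is unknown.

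Deposited values were the peak borders in 50 bp steps, a false discovery rate (FDR, a q-value), the caller's score, the largest log2 fold over the input of that genotype, and a Poisson p-value given as −log10, which the authors' files cap and which was not used to rank. Folds of different lists were not compared, since their inputs differ. Deposited widths equal end minus start plus 1, and positions were read as counted from 1. If the authors counted from 0, sequences are shifted by 1 base.

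Peaks were counted and their covered lengths summed per span, with borders clipped, in Python 3.11.15 (numpy 2.4.6, pandas 2.3.3, scipy 1.17.1). Genes were placed with GENCODE M21 (GRCm38), of which protein-coding starts gave the promoter windows. Sequences came from RefSeq GRCm38.p6, and none from untranslated exons are printed. The sequence of a WT peak near Hoxd11 is not reported here. Overlap, coverage and merging were tested on simulated data. The members and gene lists were chosen with earlier results of these data known, and the 100 kb bins, the shares over all promoters, the counts of wide peaks and some of the runs and peaks named were chosen after values had been seen. Otherwise the named peaks were all those touching the 5′ cluster, in each landscape the 5 of highest fold and the widest of each list, and the 3 longest runs of each kind.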

Additional observations from a re-analysis of the deposited data

How the results depend on the processing

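No paired analysis was possible because the peak lists carry no values for single replicates, and for the same reason no replicate could be left out. The depth of each library is not in the lists, so none could be set to equal depth. Of 99 values recomputed under other settings, 61 moved by less than 1.5 times (counts and lengths) or stayed within the interval (shares), and 38 moved by more. Causes of these shifts were not tested. Double mutant covered length exceeded that of WT and of Shh-/- under every setting run, by 1.13 to 2.05 times WT in the 5′ cluster, 4.11 to 9.78 in the centromeric and 3.7 to 6.45 in the telomeric landscape. The low end in the 5′ cluster came without the widest peak of each list, which left 7.55 kb in WT and 8.50 kb in the double mutant. The peak taken out lay at another place in the double mutant than in WT. Shh-/- stayed below WT in the 5′ cluster (0.701 to 0.869 times) and fell on either side of it in the landscapes.

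With an FDR below 0.05, Shh-/- centromeric peaks numbered 4, telomeric peaks 18 in WT and 23 in Shh-/-, and 95.9% of WT peaks met a double mutant peak. With equal numbers of peaks, Shh-/- had 4 centromeric peaks. With equal covered length, Shh-/- had 3 centromeric, 6 5′ cluster and 14 telomeric peaks, the last over 7.25 kb, the double mutant had 7 centromeric peaks over 9.25 kb, 3 in the 5′ cluster and 23 telomeric, and 31.0% and 74.7% of WT peaks met a Shh-/- and a double mutant peak. WT then had more telomeric peaks (39) than the double mutant. Joining peaks within 1 kb gave 17 double mutant centromeric peaks, 4, 3 and 3 peaks in the 5′ cluster (WT 16.7 kb) and 23, 22 and 33 telomeric peaks (WT 19.3 kb, Shh-/- 18.9 kb). Extending the 5′ cluster to 74.77 Mb gave 41, 22 and 42 peaks over 22.6, 17.65 and 39.8 kb. Without the widest peak, Shh-/- centromeric length was 1.25 kb. WT peaks met in Shh-/- were 34.5% when 50% of the WT peak had to be covered, 18.4% at reciprocal 50% overlap, and 62.1% when peaks up to 500 bp apart counted as met, and at the last 2 settings the double mutant gave 11.5% and 97.7%. At reciprocal 50% overlap the order of the mutants was thus the opposite.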

Other observations

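Noncoding transcripts of the 3′ cluster and telomeric landscape were covered in the following way. Hoxd3os1, antisense to the middle of the cluster, held 8800 bp of peaks in WT, 7000 bp in Shh-/- and 10131 bp in double mutant limb buds, and Haglr, next to Hoxd1, held 950, 750 and 1978 bp. A330043C09Rik in the telomeric landscape held 750, 900 and 3282 bp, and Gm13652 held 349, 0 and 599 bp. Within the 20 genes of the Hedgehog pathway and posterior limb, Sall3 was lowest in Shh-/- and highest in the double mutant (1429, 1100 and 2729 bp), whereas Sall1 (338, 638 and 1388 bp) and Bmp4 (0, 450 and 500 bp) were lowest in WT. Osr1 had a promoter peak in Shh-/- only (200 bp). These values come from 1 list per genotype and were not tested.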
